A study of Homo sapiens with 10 samples.

Results

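The genes described here are the ZNF genes of chromosome 19, which encode zinc finger proteins. They were chosen by name and position, as every row of the count table on chromosome 19 whose symbol is ZNF followed by a number, with or without a closing letter. The rule found 253 of the 26256 genes of the table of untreated cells. The same symbols matched 252 of the 55736 genes of the Nutlin-3a table, where ZNF542P had no row. Chromosome 19 zinc finger genes are compared first between G12V and MCF10A cells and then between Nutlin-3a and DMSO.

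MCF10A is an immortalized, non-transformed human mammary epithelial line. G12V cells are MCF10A cells transduced by lentivirus with an HRas vector carrying the G12V oncogenic mutation and hygromycin resistance, along with a GFP vector, and they are 1 line, so that a change of that line and a change due to the oncogene cannot be told apart. Parental MCF10A and G12V cells were untreated, with 2 libraries each. In the other experiment parental MCF10A cells were given 10 µM Nutlin-3a, an inhibitor of the binding of MDM2 to p53, or DMSO as vehicle, for 4 h, with 3 libraries each. All cells were grown with epidermal growth factor, insulin, hydrocortisone and cholera toxin and were at a low passage, and the labels call the libraries biological replicas.

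Most zinc finger genes of chromosome 19 lie in tandem clusters that arose by gene duplication, and many encode a KRAB domain ahead of an array of C2H2 zinc fingers. The fingers bind DNA, often within retroelements, and the KRAB domain recruits TRIM28 (KAP1), which brings the histone methyltransferase SETDB1 and HP1 proteins and silences the bound site. These genes are commonly expressed at low levels.

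Total counts were 21538593 to 23683975 in the untreated libraries and 15453226 to 17378734 in the Nutlin-3a experiment. HRAS checks the first set of labels, with 72.6 and 65.9 CPM (read counts scaled to a common library size) in MCF10A and 631 and 515 CPM in G12V (log2 fold change 3.05, SE 0.23). All 6 breast epithelial markers examined (EPCAM, CDH1, KRT5, KRT14, KRT17, TP63) were lower in G12V, by 1.96 (KRT5) to 11.8 (KRT14) on the log2 scale, with CDH1 at 0.428 and 0.535 CPM in G12V against 199.5 and 238.1 CPM in MCF10A. Of the mesenchymal markers CDH2 was higher in G12V, FN1 was lower, and VIM had a log2 fold change of 0.71 and was not called. The leukocyte gene PTPRC had 0 or 1 read per library, and the endothelial gene PECAM1 had 1.68 to 3.51 CPM. The summed level of the 6 epithelial markers was 6319 and 7894 CPM in MCF10A and 944 and 1229 CPM in G12V. The epithelial label holds by these markers for MCF10A, while CDH1, KRT14, KRT17 and TP63 were under 2 CPM in both G12V libraries. The part of this loss of epithelial markers in the values below was not tested. In bulk RNA fewer cells with a transcript and less of it per cell cannot be told apart.

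As a group, the chromosome 19 zinc finger genes were little different between MCF10A and G12V cells. Only 4 of the 210 tested members (1.90%) passed edgeR's quasi-likelihood test, against 11.0% of all tested genes. Other tests, given below, called more members, some of them higher in G12V. These 4 were all lower in G12V: ZNF256, ZNF880, ZNF222 and ZNF440. Their promoter sequences are shown because these genes carry the change. Each line gives the 250 bases before the transcript start, 5′ to 3′ on the strand of the gene, from the RefSeq table on GRCh38.p14, with CpG dinucleotides in capitals. ZNF256 is at chr19:57947707-57947956 on the minus strand, ZNF880 at chr19:52369673-52369922, ZNF222 at chr19:44025129-44025378 and ZNF440 at chr19:11814023-11814272, these 3 on the plus strand.
ZNF256: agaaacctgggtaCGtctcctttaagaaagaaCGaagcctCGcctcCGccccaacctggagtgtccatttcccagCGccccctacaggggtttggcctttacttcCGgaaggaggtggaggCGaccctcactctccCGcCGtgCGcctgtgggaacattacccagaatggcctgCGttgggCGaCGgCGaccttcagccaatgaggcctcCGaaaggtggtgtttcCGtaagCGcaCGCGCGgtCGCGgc
ZNF880: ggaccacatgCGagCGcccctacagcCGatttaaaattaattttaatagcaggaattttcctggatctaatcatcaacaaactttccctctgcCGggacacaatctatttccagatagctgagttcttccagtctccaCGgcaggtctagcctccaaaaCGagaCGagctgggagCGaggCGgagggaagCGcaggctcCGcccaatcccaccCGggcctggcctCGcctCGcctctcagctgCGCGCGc
ZNF222: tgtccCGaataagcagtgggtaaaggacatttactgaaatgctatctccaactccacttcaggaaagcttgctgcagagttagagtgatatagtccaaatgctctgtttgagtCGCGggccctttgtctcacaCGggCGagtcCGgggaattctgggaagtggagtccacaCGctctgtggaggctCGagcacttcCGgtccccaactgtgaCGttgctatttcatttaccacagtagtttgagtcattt
ZNF440: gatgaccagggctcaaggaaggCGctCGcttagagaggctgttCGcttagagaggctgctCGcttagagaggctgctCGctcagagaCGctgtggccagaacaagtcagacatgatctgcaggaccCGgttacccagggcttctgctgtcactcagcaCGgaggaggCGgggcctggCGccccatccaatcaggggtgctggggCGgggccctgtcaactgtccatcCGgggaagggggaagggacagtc
The windows hold 22, 17, 10 and 12 CpG in this order. CG reads the same on both strands. The 212 members with an entry in that table had a median of 15.5 CpG, and 86.8% of them had 10 or more, against a median of 11 and 52.5% over the 27305 RefSeq genes. All 4 thus have at least 10, and those of ZNF222 and ZNF440 are below the median of the members. The methylation of these CpG was not analysed here.

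ZNF256 lies on the minus strand of chromosome 19 from 58452201 to 58459077 (hg19). Its counts were 13 and 13 reads in MCF10A and 0 and 0 in G12V, or 0.591 and 0.573 CPM against no read. The groups do not overlap, and all reads were in the parental line. With 3 counts set as the limit in each G12V library and the MCF10A mean taken without error, the bound was 4.44-fold lower in G12V. The fitted log2 fold change of -6.73 depends on the prior count (adjusted p = 0.0206 by the quasi-likelihood test of edgeR, adjusted by the method of Benjamini and Hochberg). Its canonical transcript shares 0.05% of its 50-base words with other genes, so that few of its reads could belong elsewhere.

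ZNF880, on the plus strand from 52873170 to 52889046, had 23 and 24 reads in MCF10A and 0 and 1 in G12V. In CPM this was 1.05 ± 0.00827 (SD, n = 2) against 0.0223 ± 0.0315 (SD, n = 2). With 1 read in the lower group the ratio of MCF10A to G12V is 48.2, with an exact 95% counting interval of 8.23 to 1942 (adjusted p = 0.0131, edgeR's quasi-likelihood test). Intervals and bounds of this kind cover at most counting error. It shares 0.36% of its 50-base words with other genes.

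ZNF222, on the plus strand from 44529494 to 44537262, had 29 and 15 reads in MCF10A and 2 and 4 in G12V, or 1.32 and 0.661 CPM against 0.0855 and 0.178 CPM. The groups do not overlap, but in each group the 2 libraries differ from each other. It fell by 2.86 on the log2 scale (SE 0.66, adjusted p = 0.0458, edgeR's quasi-likelihood test), just inside the threshold. The call was lost by DESeq2 (adjusted p = 0.0639) and by edgeR without a filter on low counts (adjusted p = 0.0643). It shares 4.15% of its 50-base words with other genes, most with ZNF155.

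ZNF440, on the plus strand from 11925107 to 11946016, had 69 and 97 reads in MCF10A and 25 and 27 in G12V. This is 3.70 ± 0.803 CPM (SD, n = 2) against 1.14 ± 0.0957 CPM (SD, n = 2), and the groups do not overlap. It fell by 1.70 on the log2 scale (SE 0.38, adjusted p = 0.0420, edgeR's quasi-likelihood test). It shares 6.43% of its 50-base words with other genes, most with ZNF439, the highest share of the 4.

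**Figure D1:**
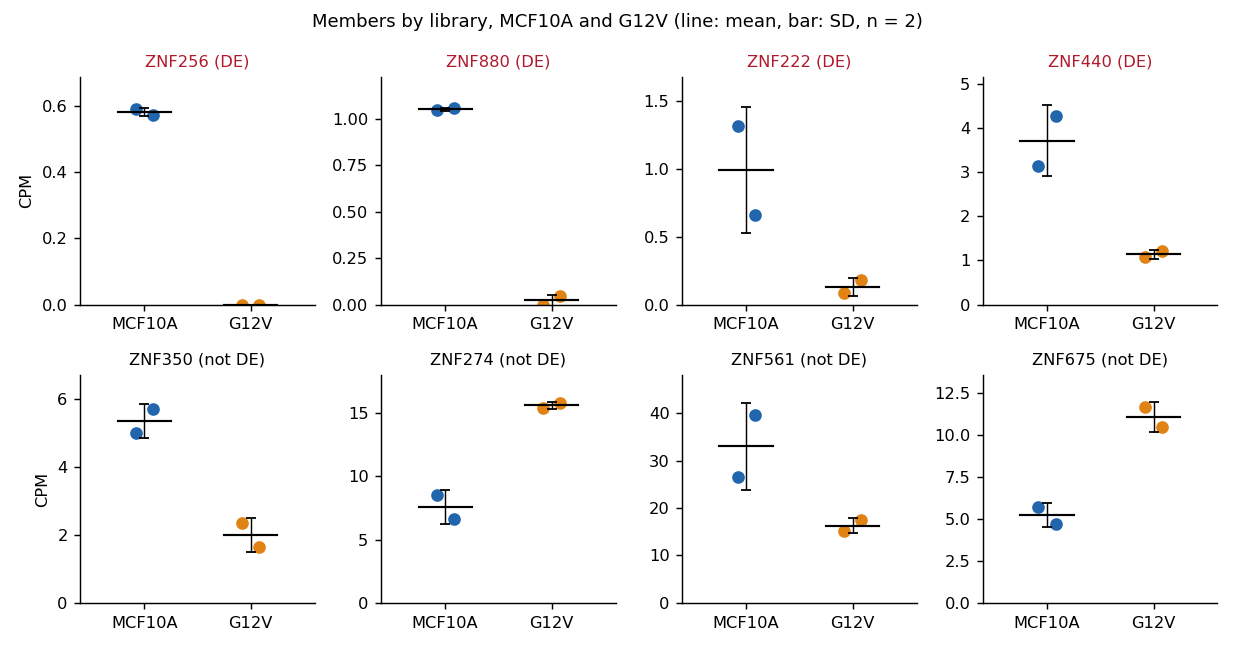
CPM of 8 chromosome 19 zinc finger genes in each MCF10A (blue) and G12V (orange) library, with the mean as a line and the SD as a bar (n = 2), each panel on its own scale from 0. The upper row holds the 4 DE genes, all lower in G12V, and the lower row holds 4 genes just outside the threshold, of which ZNF274 and ZNF675 were higher in both G12V libraries.

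A gene was called differentially expressed (DE) where the adjusted p was under 0.05 and the log2 fold change exceeded 0.5 in size, the thresholds of the study's Methods. Of the 253 members 210 had enough reads for the test. The other 43 were not tested, 9 of them with no read in any untreated library and 34 with some reads. The 4 DE members are 1.90% of the 210, against 11.0% of all 14376 genes tested, and against 5.95% DE and lower among all genes. The share was 7.53% (18 of 239) for ZNF genes of other chromosomes and 10.4% (83 of 797) for the other genes of chromosome 19.

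Chromosome 19 zinc finger genes are read at low levels, with a median of 4.37 CPM against 25.2 CPM over all tested genes, and their standard errors were larger, with a median of 0.36 against 0.28 on the log2 scale. Split by mean level, 3 of 53 members under 2 CPM were DE (5.66%), against 11.8% of all genes at that level. Between 2 and 10 CPM 1 of 115 was DE (0.870%), against 16.2%. At 10 CPM or more none of 42 was DE by edgeR's quasi-likelihood test, against 9.48% of all genes, while 4 of the 42 had an unadjusted p under 0.05 and edgeR's exact test and DESeq2 each called ZNF274 and ZNF561. At each level the share of members called was thus under that of all genes. For ZNF genes of other chromosomes the shares at these 3 levels, from low to high, were 26.7%, 6.10% and 3.94%. From 2 CPM upward they too were under those of all genes.

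The sizes of the changes were also smaller than over all genes. The median absolute log2 fold change was 0.26 for the members and 0.36 for all tested genes, and 19 members (9.05%) differed by over 1 in log2, against 17.7%. ZNF genes of other chromosomes lay between, with 0.32 and 12.6%. At 10 CPM or more the median was 0.19 for the members, 0.26 for those ZNF genes and 0.29 for all genes. The groups did not overlap in 95 members (45.2%), against 54.8% of all genes, with 46 higher and 49 lower in G12V. The members had no common direction, with 107 above 0 and 103 below it. The median of their log2 fold changes was 0.028, also with ZNF256 at its bound (-0.08 to 0.09 with a library left out), against -0.0011 over all genes. The quartiles were -0.27 and 0.26. For 61 members (29.0%) the 95% interval of the log2 fold change lay within 1 on either side of 0. For the others the interval reached past 1, so that these libraries do not bound the change to that size.

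**Figure D2:**
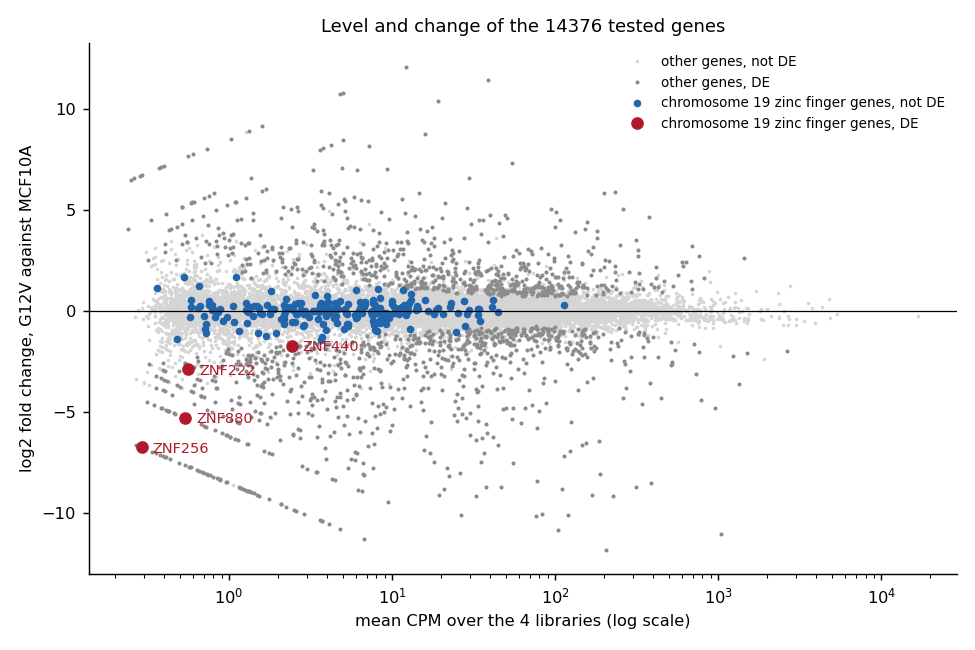
Log2 fold change of G12V against MCF10A by mean CPM over the 4 untreated libraries (log scale) for the 14376 tested genes, with chromosome 19 zinc finger genes in blue and the 4 DE ones in red. The members lie at low to middle levels, close to 0 on the vertical axis, and ZNF256, ZNF880 and ZNF222 lie under 2 CPM.

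The members just outside the threshold moved in both directions. ZNF350 (ZBRK1), a KRAB repressor that binds BRCA1, had 110 and 130 reads in MCF10A and 55 and 37 in G12V (log2 fold change -1.42, SE 0.36, adjusted p = 0.0597, edgeR's quasi-likelihood test). ZNF274, which recruits SETDB1 to the 3′ ends of zinc finger genes, had 187 and 150 reads in MCF10A and 361 and 354 in G12V (log2 fold change 1.05, SE 0.27, adjusted p = 0.0611, same test). In both genes the groups do not overlap. The span of ZNF350 overlaps its antisense gene ZNF350-AS1, and since the strand setting of the counting is not given in the sources used here, their reads cannot be told apart.

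ZNF701 had 5.59 and 4.98 CPM in MCF10A and 2.01 and 2.36 CPM in G12V. ZNF561 had 26.5 and 39.5 CPM in MCF10A and 15.1 and 17.4 CPM in G12V. ZNF675 had 5.73 and 4.71 CPM in MCF10A and 11.7 and 10.4 CPM in G12V. None of these 3 overlapped between the groups, and their adjusted p were 0.0659, 0.0677 and 0.0677 (edgeR's quasi-likelihood test). The count of calls was higher by other tests. edgeR's exact test called 13 of 210 members (6.19%), 5 higher and 8 lower, against 17.6% of all genes, and DESeq2 called 10 of the 228 members to which it gave an adjusted p (4.39%), 3 higher and 7 lower and without ZNF222, against 14.0% of all genes. The higher ones by both were ZNF274, ZNF566 and ZNF675.

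Leaving out single libraries changed these calls, where the library left alone in its group was taken to vary like the other group. With either MCF10A library left out, ZNF256 had too few reads for the test, so its call could not be made. Without MCF10A library 1 no gene of the whole table was DE by edgeR's quasi-likelihood test, so no member was either. Without MCF10A library 2 the members called were ZNF222 and ZNF880, without G12V library 2 they were ZNF256 and ZNF880, and without G12V library 1 they were ZNF256, ZNF880 and ZNF350, all lower, and ZNF382, higher. ZNF440 was thus called in none of these 4 fits and ZNF880 in 3 of them.

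Few members were read in 1 group and not in the other. In 8 of 253 (3.16%) both libraries of 1 group had at most 3 reads and the other group did not, against 5.63% of all 26256 genes, and 5 of the 8 were low in G12V and 3 in MCF10A. Besides ZNF256 and ZNF880, ZNF229 had 8 and 11 reads in MCF10A and none in G12V. ZNF671 had 6 and 19 reads in MCF10A and 1 and 2 in G12V. ZNF382 had 1 and 3 reads in MCF10A and 8 and 24 in G12V, the opposite direction. ZNF229, ZNF671 and ZNF382 had too few reads for the test. Only ZNF256 and ZNF880 had 10 or more reads in each library of the group where they were read.

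Along the chromosome the members fell into 9 clusters of 5 or more, with under 1 Mb between successive starts, which together hold 242 of the 253. The median log2 fold change was above 0 in 4 clusters and below 0 in 5. The 4 DE genes lay in 4 different clusters, 1 in each. In the cluster from ZNF628 to ZNF446, at 55.99 to 59.0 Mb (hg19) near the end of the long arm, 53 of 60 members were tested, with a median of -0.04, and ZNF256 was the lowest. In the cluster from ZNF175 to ZNF331, at 52.07 to 54.08 Mb, 39 of 43 were tested, with a median of 0.10, and ZNF880 was the lowest. The cluster from ZNF575 to ZNF296, at 44.04 to 45.58 Mb, held ZNF222 and had a median of -0.11 over 22 tested members, and the cluster from ZNF653 to ZNF791, at 11.59 to 12.74 Mb, held ZNF440 and had a median of -0.0017 over 18.

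The cluster medians farthest from 0 belonged to the smallest clusters. The 5 members from ZNF302 to ZNF792 had a median of 0.42, with 4 of 5 above 0, and the 4 tested members from ZNF554 to ZNF77 had a median of -0.26. None of these 9 was called by any rule above. The summed CPM of the ZNF302 cluster was 12.6 and 16.3 in MCF10A and 16.2 and 20.0 in G12V. These values overlap between the groups. Other genes inside the larger clusters had medians of their own, such as 0.20 over 7 genes between ZNF175 and ZNF331 and -0.18 over 16 genes between ZNF628 and ZNF446. Between ZNF557 and ZNF846 the signs differed, with -0.24 over 35 other genes and 0.11 over 13 tested members.

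**Figure D3:**
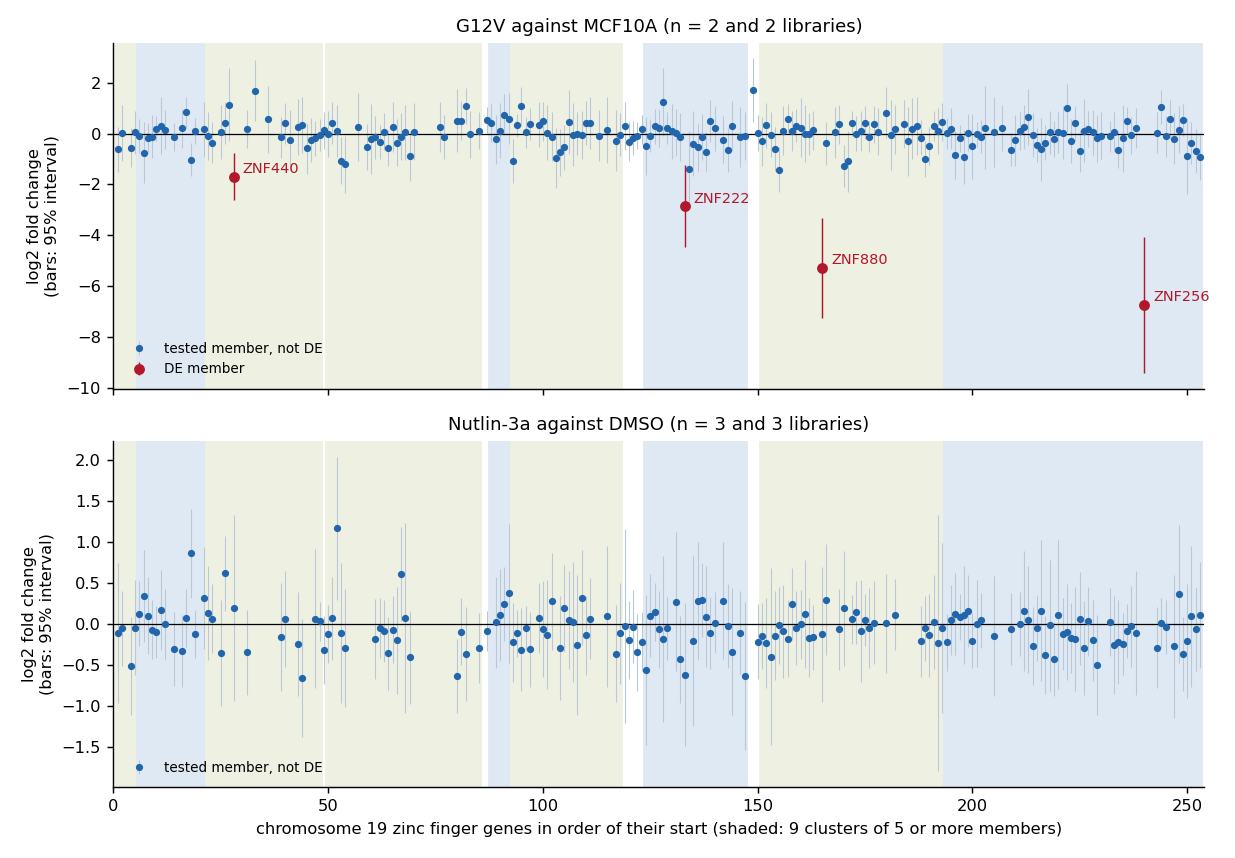
Log2 fold change with its 95% interval of each tested chromosome 19 zinc finger gene, in order of position, for G12V against MCF10A (upper, 210 genes) and Nutlin-3a against DMSO (lower, 177 genes, another vertical scale), with the 9 clusters shaded. The 4 DE genes (red) are the lowest points of the upper panel, and no gene is DE in the lower panel, where the fit did not pair libraries.

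The neighbours of the DE genes were also read. ZNF155 and ZNF230, the members before ZNF222, had log2 fold changes of 0.04 and -0.14. ZNF223, 26.7 kb after it, had 15 and 16 reads in MCF10A and 3 and 9 in G12V (log2 fold change -1.38, SE 0.61, adjusted p = 0.229, edgeR's quasi-likelihood test). ZNF480, 2 members before ZNF880, and ZNF528, next after it, had log2 fold changes of 0.13 and -0.37. ZNF610, between ZNF480 and ZNF880, had 0 or 1 read per library and was not tested. ZNF491 and ZNF441, before ZNF440, had 1.14 and 0.42. ZNF418 and ZNF606, next to ZNF256, had 0 to 2 reads per library and were not tested. None of the tested members among the 2 on either side of a DE gene was DE. ZNF418, ZNF606 and ZNF135 near ZNF256, ZNF439 and ZNF69 after ZNF440, and ZNF610 and ZNF534 near ZNF880 could not be tested.

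**Figure D4:**
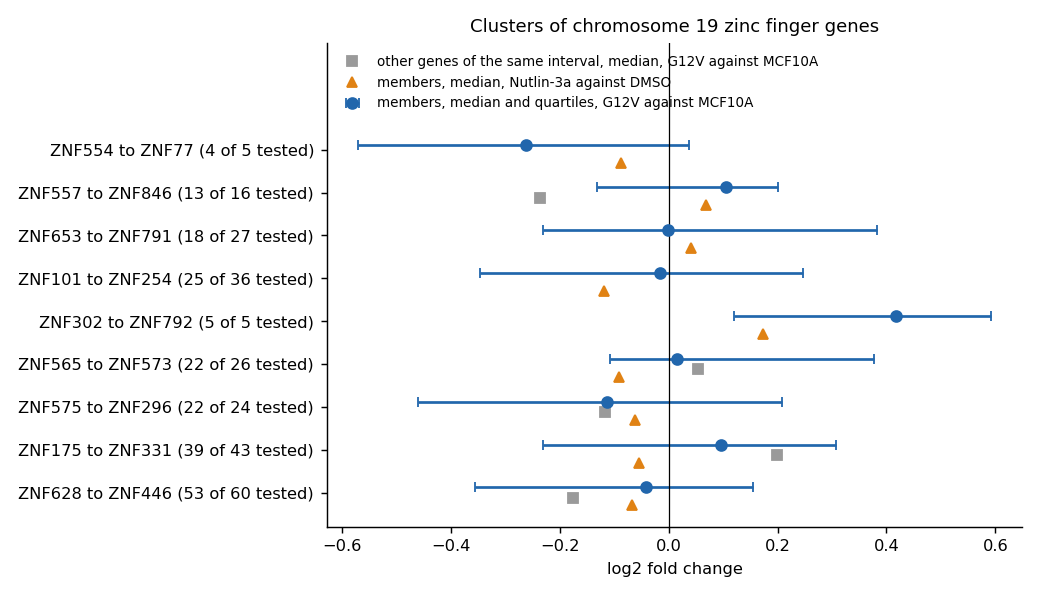
Median log2 fold change of the members of each cluster (blue circles, bars from the lower to the upper quartile) and of other genes in the same interval where 5 or more were tested (grey squares), G12V against MCF10A, with the members' median for Nutlin-3a against DMSO (orange triangles). The medians for Nutlin-3a lie between -0.12 and 0.17, and the cluster from ZNF302 to ZNF792 has the highest median in both comparisons (5 genes tested in G12V against MCF10A and 4 with Nutlin-3a).

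Sequence features were taken from the canonical transcripts and the longest proteins of GENCODE. A pattern of the KRAB domain was found in 177 of the 242 members with a protein, and the members had a median of 12 C2H2 fingers and a highest count of 36. All 4 DE genes hold the pattern, with 15 fingers in ZNF256, 13 in ZNF880, 8 in ZNF222 and 10 in ZNF440. Of the tested members 145 had the pattern, with 4 DE and a median log2 fold change of 0.05, and 59 lacked it, with none DE by edgeR's quasi-likelihood test and a median of -0.09. Of these 59, 6 had an unadjusted p under 0.05, edgeR's exact test called ZNF433 and ZNF675, and DESeq2 called ZNF675. A protein without the pattern may still hold a KRAB domain of another sequence.

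Levels per length differed between these classes. Members with the pattern had a median of 0.916 CPM per kb of transcript in MCF10A and 0.938 in G12V, and those without it 1.87 and 1.70 CPM per kb. Of the 10 members with the highest level per kb in MCF10A 9 lacked the pattern. None of the 10 was DE or had an unadjusted p under 0.05 by edgeR's quasi-likelihood test, and neither the exact test nor DESeq2 called any. ZNF581, with 34.0 CPM per kb in MCF10A and 24.1 in G12V, was the highest in MCF10A, but its libraries ranged from 22.2 to 59.1 CPM in MCF10A and from 19.5 to 38.2 CPM in G12V, so its place above ZNF146 is within their spread. ZNF146 had 30.2 CPM per kb in MCF10A and 37.8 in G12V.

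ZNF146 (OZF), which consists almost only of zinc fingers, had the most reads of all members, with 108.1 and 94.0 CPM in MCF10A and 119 and 134 CPM in G12V (log2 fold change 0.32, SE 0.18, adjusted p = 0.337, edgeR's quasi-likelihood test). It overlaps ZNF565, which had 60 and 58 reads in MCF10A and 30 and 27 in G12V. Next in reads came ZNF787, ZNF507, ZNF317 and ZNF581. ZNF507 had 36.3 and 31.2 CPM in MCF10A and 44.9 and 53.2 CPM in G12V (log2 fold change 0.54, SE 0.21, adjusted p = 0.168, same test). ZNF787 and ZNF317 had log2 fold changes of -0.02 and 0.20.

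Reads of related genes could be exchanged where sequences are alike. The members shared a median of 1.37% of their 50-base words with other genes, 14 shared more than 15%, and the most alike was ZNF98, at 58.1%. Values of such members are uncertain. Of the tested members 23 overlap another gene of the table.

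Members with a described role were read as a list of 16, of which 12 were tested. None was DE by edgeR's quasi-likelihood test, but ZNF350 and ZNF274 had an unadjusted p under 0.05 and were called by the exact test and by DESeq2. Their median log2 fold change was 0.14. ZNF304 had 10.2 and 9.34 CPM in MCF10A and 7.53 and 6.78 CPM in G12V (log2 fold change -0.45, SE 0.27, adjusted p = 0.372, same test). ZNF91, a repressor of SVA retroelements, had 7.36 and 9.12 CPM in MCF10A and 9.54 and 14.0 CPM in G12V (log2 fold change 0.51, SE 0.31). Neither gene overlapped between the groups, and neither passed the test.

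The other tested genes of the list did not pass the test either. ZNF420 (Apak), an inhibitor of p53, had a log2 fold change of 0.45 with an SE of 0.51, and its libraries overlap. ZNF331 had a log2 fold change of 0.45, ZNF471 of 0.22, ZNF260 of 0.06, ZNF649 of -0.04 and ZNF154 of -0.08. ZNF224, a repressor of the aldolase A gene, had -0.54 with an SE of 0.39. ZNF582 had no read in any untreated library, and ZNF536, a neural repressor, had a single read in 1 G12V library.

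The partners of KRAB proteins were also read. The list held TRIM28, SETDB1, ATF7IP, the HP1 genes CBX1, CBX3 and CBX5, the nucleosome remodelers and deacetylases CHD3, CHD4, HDAC1 and HDAC2, SMARCAD1, the HUSH genes MPHOSPH8, FAM208A and PPHLN1 with MORC2, ATRX, and the DNA methylation genes DNMT1 and UHRF1. All 18 were tested and none was DE by edgeR's quasi-likelihood test, none had an unadjusted p under 0.05, and neither the exact test nor DESeq2 called any. Log2 fold changes ran from -0.43 (UHRF1, SE 0.60) to 0.32 (DNMT1, SE 0.36). TRIM28 had 475 and 446 CPM in MCF10A and 501 and 410 CPM in G12V, and its 95% interval of the log2 fold change ran from -0.55 to 0.52. SETDB1 had 50.7 and 60.0 CPM in MCF10A and 48.2 and 55.4 CPM in G12V.

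The sum over all members was alike in the untreated groups. Their counts were 0.153% to 0.165% of each library, and the summed levels were 1495 and 1667 CPM in MCF10A and 1554 and 1656 CPM in G12V, with both G12V values inside the range of MCF10A.

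With Nutlin-3a the chromosome 19 zinc finger genes stayed close to their levels with DMSO. Of 252 members 177 were tested, and none was DE by edgeR's quasi-likelihood test, against 0.17% of 13529 genes. Neither the exact test nor DESeq2 called any, and 5 (2.82%) had an unadjusted p under 0.05, against 3.42% of all genes. None of these fits used the number that libraries share. With that number as a block, edgeR's quasi-likelihood test called 2 members (1.13%), ZNF561 and ZNF296, against 1.22% of all genes. ZNF441, ZNF506, ZNF724P and ZNF493 are named below for their small p and no more. The treatment itself was seen in the p53 targets, with log2 fold changes of 2.16 for CDKN1A (adjusted p = 0.000516) and 2.54 for MDM2 (adjusted p = 0.00133, edgeR's quasi-likelihood test). Of the members not tested 28 had no read in any of the 6 libraries.

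ZNF561 had the smallest p. It had 15.9, 18.7 and 23.6 CPM with DMSO and 27.7, 29.6 and 48.2 CPM with Nutlin-3a. All 3 treated libraries lay above all 3 controls, and within each pair of the same number the treated library was higher. The log2 fold change was 0.86 (SE 0.24, adjusted p = 0.617, edgeR's quasi-likelihood test). Libraries of the same number shared their deviations, and with the number as a block it was 0.84 (SE 0.10, adjusted p = 0.000789), past the threshold. In G12V against MCF10A its log2 fold change was -1.02, and these 2 comparisons share no library.

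ZNF296 was also called with the block. It had 7.74, 7.98 and 14.2 CPM with DMSO and 3.70, 5.27 and 10.3 CPM with Nutlin-3a. The groups overlap, but within each number the treated library was lower. The log2 fold change was -0.64 without the block (SE 0.39, adjusted p = 1.00, edgeR's quasi-likelihood test) and -0.67 with it (SE 0.15, adjusted p = 0.0399). Its span overlaps another gene of that table. These 2 genes are 1.13% of the 177 members, and 1.22% of all genes were DE with the block.

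Of the other genes with a small p, ZNF441 had 3.04, 3.07 and 3.15 CPM with DMSO and 5.30, 4.09 and 4.80 CPM with Nutlin-3a. ZNF506 had 0.664, 0.552 and 0.350 CPM with DMSO and 1.23, 0.806 and 1.51 CPM with Nutlin-3a. ZNF724P was lower, with 5.14, 6.32 and 6.65 CPM against 3.76, 4.28 and 3.62 CPM. These 3 did not overlap between treatments. The last, ZNF493, had 2.27, 1.53 and 1.75 CPM with DMSO and 2.90, 2.42 and 3.16 CPM with Nutlin-3a, again without overlap. The adjusted p of these 4 were from 0.843 to 1.00 (edgeR's quasi-likelihood test), and 0.0810 to 0.245 with the block. The treated and control libraries did not overlap in 15 members (8.47%), 5 higher and 10 lower, against 8.07% of all genes. The spans of ZNF506, ZNF724P and ZNF493 overlap other genes on the annotation of this experiment, and that of ZNF441 does not.

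**Figure D5:**
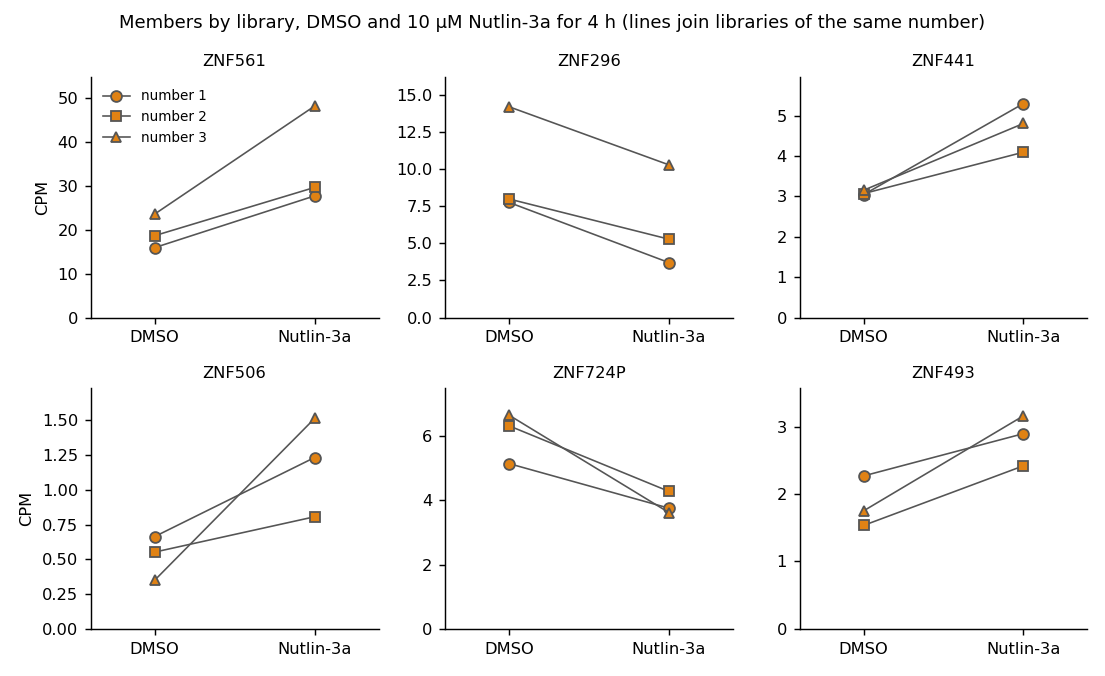
CPM of the 5 members with the smallest p and of ZNF296 in each DMSO and Nutlin-3a library, with lines joining libraries of the same number and each vertical axis starting at 0. ZNF561, ZNF441, ZNF506 and ZNF493 are higher and ZNF296 and ZNF724P lower with Nutlin-3a in each of the 3 pairs.

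The members lay slightly below 0 as a whole. The median log2 fold change was -0.07, with 66 members above 0 and 111 below, against a median of 0.0066 over all genes. It was -0.0322 without members that overlap another gene, -0.0372 without DMSO library 3 and -0.10 on library totals, where the median of all genes was -0.03. The summed level of the members was 1502, 1546 and 1667 CPM with DMSO and 1415, 1491 and 1611 CPM with Nutlin-3a, lower in each of the 3 pairs while the groups overlap. For 148 members (83.6%) the 95% interval lay within 1 on either side of 0. The 10 tested members with a described role had log2 fold changes from -0.40 to 0.27, and none was DE, had an unadjusted p under 0.05 or was called by the exact test or DESeq2. Of the 18 KRAB partners none was DE by edgeR's quasi-likelihood test, the exact test or DESeq2, and UHRF1 alone had an unadjusted p under 0.05. The results of both lists are from fits without the block.

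The genes that were DE in G12V were read in this experiment too, on another annotation and scaled separately. With DMSO ZNF256 had 1, 5 and 3 reads, fewer than the 13 and 13 of the untreated parental libraries, and with Nutlin-3a it had 1, 1 and 2. ZNF880 had 45, 26 and 20 reads with DMSO and 19, 25 and 32 with Nutlin-3a. ZNF222 had 23, 9 and 17 reads against 9, 10 and 10, and ZNF440 had 13, 20 and 10 against 16, 24 and 6. On this annotation the span of ZNF222 overlaps ZNF223. ZNF256 was not tested, and the log2 fold changes of ZNF880, ZNF222 and ZNF440 were -0.13 (SE 0.36), -0.62 (SE 0.38) and 0.19 (SE 0.50).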

How the data were processed

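RNA-seq of 10 libraries was used, 2 each of MCF10A and G12V and 3 each of DMSO and Nutlin-3a. Per the labels and the study's Methods, the authors selected poly(A) RNA, aligned reads to hg19 with TopHat, and deposited the raw HTSeq counts of each gene. Annotations, strand setting and the treatment of overlaps are not given in the sources used here. Each table was fitted whole and on its own in edgeR 4.0.16 (limma 3.58.1, R 4.3.3), with filterByExpr, TMM, the quasi-likelihood F-test and p-values adjusted by the Benjamini-Hochberg method. CPM use TMM-scaled library sizes, the prior count was 0.125, and the SE is the log2 fold change over the root of F. The fit was tested on simulated data before use.

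The members, the lists and the rule for named genes were chosen with earlier results of these data known. Named genes are the DE members, those nearest the threshold, the 5 with the most reads, the 5 with the smallest p for Nutlin-3a and the lists. Genes beyond this rule (called under an alternative, neighbours, or read in 1 group or table) were named after their values were seen. Alternatives were RLE factors, library totals, DESeq2 1.42.0, the exact test, 2 other filters, a replicate block, each library left out, no fold threshold, no overlapping members and other cluster gaps.

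Shared 50-base words, lengths, fingers and the KRAB pattern (tyrosine or phenylalanine, any residue, aspartate, glutamate or asparagine, valine, methionine or leucine, any residue, glutamate) come from GENCODE on GRCh37, where 250 members matched. Promoters come from RefSeq. Python 3.11.15 with pandas 2.3.3, scipy 1.17.1 and matplotlib 3.10.9 was used. For DMSO and Nutlin-3a the labels number libraries 1 to 3. After removal of the group means libraries of 1 number correlated at 0.624, 0.603 and 0.639 and others at -0.474 to -0.191. The deviations within a group cancel out, so the negative values follow from the positive ones and add no support. By the positive values the numbers were taken to pair these libraries. An exact permutation test cannot go below 0.333 for 2 against 2 libraries or 0.1 for 3 against 3. That replicates came from separate cultures is stated only as biological replicas, and p-values measure the spread between them.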

Additional observations from a re-analysis of the deposited data

How the results depend on the processing

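Between G12V and MCF10A, members DE and higher, none as reported, numbered 3 by DESeq2, 5 by the exact test and 11 with a replicate block, and 0 to 1 with a library left out. Members DE and lower, 4 as reported, numbered 7, 8 and 16 in these fits, 2 with the filter at 1 CPM and 0 to 3 with a library left out. RLE factors and library totals also gave 0 higher and 4 lower, and no filter gave 0 higher and 3 lower (ZNF256, ZNF440 and ZNF880). The block called 28.9% of all genes (4158). The labels share only a number here, and pairing by origin was not tested. The correlation was 0.494 within the number and -0.494 across. These are 1 value with its sign changed, since the deviations of 2 libraries mirror each other. The median of the members ran from -0.0796 to 0.0869 with a library left out.

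For Nutlin-3a, 1 member was higher without a filter (ZNF561), and with the replicate block 1 was higher and 1 lower. The median was -0.10 on library totals, which moves the median of all genes to -0.03, and -0.0322 without members that overlap another gene, and it ran from -0.0923 to -0.0372 with a library left out.

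The sign changed for 6 genes near 0 or with spread libraries. ZNF787 was at 0.0122 on library totals and 0.00999 with the filter at 1 CPM. With a library left out, log2 fold changes ran from -0.27 to 0.16 for ZNF154, -0.14 to 0.23 for ZNF260, -0.15 to 1.03 for ZNF420, -1.06 to 0.37 for ZNF581, -0.29 to 0.27 for ZNF649 and -0.18 to 0.12 for ZNF787. Clusters numbered 10 with gaps of 0.5 Mb and 6 with gaps of 2 Mb. With 2 libraries a group, low members are imprecise. The causes of these differences were not tested.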

Other observations

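Some members were read in the untreated libraries and not in the Nutlin-3a experiment, although both hold parental MCF10A cells. Of the 183 members with 20 or more reads in both MCF10A libraries, 8 had at most 3 reads in each of the 6 DMSO and Nutlin-3a libraries, or 4.37%, against 2.20% (267 of 12140) of all genes whose symbol names 1 row in each table. That difference was not tested. By the same limits no member was read only in the opposite way. The 8 were ZNF43, ZNF99, ZNF347, ZNF471, ZNF492, ZNF564, ZNF681 and ZNF793. ZNF793 had 115 and 73 reads in MCF10A and 112 and 71 in G12V, and 0 in all 6 of the others. ZNF471 had 41 and 57 reads in MCF10A and 64 and 53 in G12V, and likewise 0 in all 6. ZNF471, ZNF681 and ZNF793 overlap no other gene of the Nutlin-3a table, while the other 5 do. Among the genes counted in the untreated libraries, ZNF793 alone of the 8 overlaps another, ZNF793-AS1. Epithelial markers also differed between the parental groups, each scaled in its own experiment. TP63 had 119.4 and 213.8 CPM in untreated MCF10A and 17.0 to 25.2 CPM with DMSO. KRT14 had 402.1 and 422.5 CPM against 47.5 to 123.1 CPM, and KRT17 1834 and 2297 CPM against 124.1 to 443.8 CPM. The values of EPCAM, CDH1 and KRT5 overlapped. The tables use different annotations, and whether the counting or the cells differ was not tested.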
